A study of Mus musculus with 16 samples.

Results

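The genes described here are 8 markers of fat cells, Adipoq, Cfd, Fabp4, Plin1, Cidec, Pparg, Lep and Retn, together with Cyp2e1 and Hp. They were taken from both expression tables by gene symbol, and all 10 were found in each, among 21011 genes in skeletal muscle and 38933 in cortical bone. They were picked because their values in BAY- and VEH-treated muscle had already been seen. The muscle comparison is therefore given for them as a description, and no test of it is read as a result. Bulk RNA-seq came from the tibialis anterior (TA) and the cortical bone shafts of female C57BL/6 mice aged 18 months at the start of treatment. BAY-treated mice received BAY2416964, an antagonist of the aryl hydrocarbon receptor (AhR), at 30 mg/kg by oral gavage on 5 days per week for 8 weeks, and VEH-treated mice received the ethanol, Solutol and water mixture in which it was suspended. Each tissue had 4 libraries per group, from 1 TA per mouse in muscle and, in bone, from shafts digested with collagenase after the marrow had been taken for cell culture, and the labels do not say whether both tissues came from the same mice. Libraries are called VEH1 to VEH4 and BAY1 to BAY4 within each tissue.

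A white adipocyte stores triglyceride in a single large droplet, and the genes for coating that droplet, for making and releasing fatty acids and for the hormones of adipose tissue are kept on by PPARγ and C/EBPα. Adipocytes lie between the fibres and along the outer sheath of a muscle, and in bone they belong to the marrow. In a bulk sample, more adipocytes and more RNA per adipocyte cannot be told apart.

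The members cover the main tasks of the cell. Pparg (ENSMUSG00000000440, chromosome 6, 115337912 to 115467360, mm39) encodes the nuclear receptor PPARγ. Plin1 (ENSMUSG00000030546, chromosome 7, 79369966 to 79382651) encodes perilipin 1, which coats the droplet and controls access of lipases, and Cidec (ENSMUSG00000030278, chromosome 6, 113401595 to 113412721) a protein that fuses droplets. Fabp4 (ENSMUSG00000062515, chromosome 3, 10269148 to 10273636) encodes the fatty acid carrier aP2, which capillary endothelium also makes. The secreted products are adiponectin from Adipoq (ENSMUSG00000022878, chromosome 16, 22965286 to 22976778), leptin from Lep (ENSMUSG00000059201, chromosome 6, 29060219 to 29073876), resistin from Retn (ENSMUSG00000012705, chromosome 8, 3705770 to 3710110) and the complement protease adipsin from Cfd (ENSMUSG00000061780, chromosome 10, 79726687 to 79728489). Cyp2e1 (ENSMUSG00000025479, chromosome 7, 140343652 to 140354900) encodes a cytochrome P450 that oxidizes ethanol and other small molecules, and Hp (ENSMUSG00000031722, chromosome 8, 110301760 to 110305804) haptoglobin, which binds free haemoglobin. Both are best known from liver and are also made in white adipose tissue, and haptoglobin is stored in neutrophils as well.

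The 250 bases before the RefSeq start sites were searched for short motifs on both strands. Shared regulation of the members was not tested. RefSeq promoters on GRCm38.p6 were held for 8 of the 10 members, 11 promoters in all, and not for Fabp4 and Hp. The following 5 are shown for a hormone (Adipoq), the gene raised the most (Cfd), a droplet gene (Plin1), the lowest member in VEH3 (Lep) and the P450 gene (Cyp2e1), with every match in capitals.
Adipoq (chr16:23146286-23146535, plus strand): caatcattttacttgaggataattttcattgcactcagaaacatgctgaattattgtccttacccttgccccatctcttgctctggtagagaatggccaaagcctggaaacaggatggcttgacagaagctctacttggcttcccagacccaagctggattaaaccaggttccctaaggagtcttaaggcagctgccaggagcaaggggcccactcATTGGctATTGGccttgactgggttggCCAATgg
Cfd (chr10:79890603-79890852, plus strand): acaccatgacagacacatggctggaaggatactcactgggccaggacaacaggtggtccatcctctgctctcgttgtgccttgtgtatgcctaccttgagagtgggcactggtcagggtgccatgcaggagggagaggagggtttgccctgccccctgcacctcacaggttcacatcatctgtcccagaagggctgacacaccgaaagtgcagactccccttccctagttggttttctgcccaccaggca
Plin1 (chr7:79732777-79733026, minus strand): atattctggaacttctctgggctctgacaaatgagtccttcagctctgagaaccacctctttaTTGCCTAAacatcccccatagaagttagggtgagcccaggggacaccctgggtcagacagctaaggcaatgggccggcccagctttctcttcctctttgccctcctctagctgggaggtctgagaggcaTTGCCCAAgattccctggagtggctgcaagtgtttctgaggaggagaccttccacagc
Lep (chr6:29059971-29060220, plus strand): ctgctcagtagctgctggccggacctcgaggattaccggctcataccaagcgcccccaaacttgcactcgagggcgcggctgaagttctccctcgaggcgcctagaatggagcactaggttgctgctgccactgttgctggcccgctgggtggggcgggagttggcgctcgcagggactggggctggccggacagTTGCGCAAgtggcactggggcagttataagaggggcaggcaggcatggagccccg
Cyp2e1 (chr7:140763569-140763818, plus strand): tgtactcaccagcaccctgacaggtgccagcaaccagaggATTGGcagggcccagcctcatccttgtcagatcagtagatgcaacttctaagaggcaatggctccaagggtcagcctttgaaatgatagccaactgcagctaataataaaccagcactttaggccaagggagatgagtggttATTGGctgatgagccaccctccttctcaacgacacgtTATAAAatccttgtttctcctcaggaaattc
The C/EBP motif TTGCNNAA was found in 4 of the 11 member promoters, of Cidec, Lep, Plin1 and Pparg, and in 9.56% of all 32851 promoters. In Lep it starts 55 bases before the start site. CCAAT was found in 4 of the 11 member promoters, of Adipoq, Cyp2e1 and Pparg, and in 33.8% of all promoters. There were 3 matches in the last 34 bases of the Adipoq sequence. TATAAA was in 2 member promoters, of Cyp2e1 and Pparg (12.4% of all promoters). The core of the AhR element, GCGTG, was in 2, of Cidec and Pparg (28.2% of all promoters). The nuclear receptor core AGGTCA was in 2, both of Pparg (14% of all promoters). The direct repeat bound by PPARγ with RXR (AGGTCA, any base, AGGTCA), which would contain that core, was found in none of the 11 member promoters and in 0.0335% of all. None of these motifs was in the Cfd window. The 5 shorter motifs did not overlap each other in the printed sequences, and a match is only a match of letters.

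Reads counted on genes numbered 6134354 to 9260731 per library in muscle and 930683 to 6949731 in bone, and the value of 3 reads, taken as the floor, was 0.324 to 0.489 CPM in muscle and 0.432 to 3.22 CPM in bone (counting error only). Genes of the muscle fibre summed to 102677 to 175581 CPM in the muscle libraries other than VEH3 and to 120115 CPM in VEH3. In bone the 8 osteoblast and osteocyte genes summed to 663 to 13331 CPM. Muscle fibre genes were also present there, at 33352 and 36538 CPM in BAY1 and BAY2, 8835 CPM in VEH1, 1257 CPM in BAY3 and at most 209.6 CPM in the other libraries. In bone, VEH1, the deepest library, was at least 2 times below every other one for 14905 genes on the scale of CPM + 1, and BAY4 and VEH2 were at least 2 times above every other one for 2549 and 898 genes (6.55% and 2.31% of all genes). Without VEH2 the BAY minus VEH log2 difference of Lep in bone was 2.56 (SE 1.15, deposited scale) and without BAY4 it was 1.14 (SE 1.38). In muscle VEH3 stood apart, whose column name carries the word replacement. For 0.804% of all muscle genes VEH3 was at least 2 times above every other library on the scale of CPM + 1, 169 genes, against 0 to 10 genes for each of the other 7 libraries.

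In muscle every member was highest in VEH3, a VEH library, and 9 of the 10 members, all but Pparg, were among the 0.804% of genes that were at least 2 times above all other libraries there. VEH3 was the highest library for 26.9% of all genes. Between 33.8% (Pparg) and 91.6% (Cfd) of all reads of a member in the 8 muscle libraries came from VEH3.

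Pparg, the regulator, had one of the lowest read rates in VEH3 relative to the other libraries. It had 1.40, 1.67, 4.75 and 0.596 CPM in VEH1 to VEH4 and 1.38, 2.28, 3.23 and 1.12 CPM in BAY1 to BAY4. VEH3 lay above the rest, but BAY3 was within a factor of 2 of it, and the groups overlapped. Pooled over libraries, the read rate in VEH3 was 2.90 times that of the other 7 (exact 95% interval 1.97 to 4.21, counting error only).

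The droplet genes stood much further out. Plin1 had 2.33, 1.39, 37.9 and 1.31 CPM in VEH1 to VEH4 and 0.275, 0.978, 0.903 and 1.82 CPM in BAY1 to BAY4. Cidec had 1.28, 0, 24.1 and 0.358 CPM in VEH1 to VEH4 and 0.275, 0.326, 0.129 and 0.421 CPM in BAY1 to BAY4. For both genes VEH1 was next highest after VEH3, and the groups overlapped. The rate in VEH3 was 28.8 times that of the other libraries for Plin1 (22.2 to 37.8, 351 reads against 69) and 57.4 times for Cidec (37.0 to 93.4, 223 reads against 22).

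Fabp4 was the only member that was well expressed in every muscle. It had 46.2, 35.7, 129 and 52.1 CPM in VEH1 to VEH4 and 47.7, 42.4, 45.9 and 37.2 CPM in BAY1 to BAY4. The pooled rate in VEH3 was 2.91 times that of the other libraries (2.71 to 3.13), and apart from it BAY and VEH values were mixed. The summed level of 8 endothelial markers, a cell type that makes Fabp4, was 232 CPM in VEH3 and 205 to 287 CPM in the others.

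Among the secreted products, Cfd changed the most. It had 4.66, 1.12, 113 and 1.67 CPM in VEH1 to VEH4 and 0.963, 1.63, 0.903 and 1.40 CPM in BAY1 to BAY4, so that VEH3 had 1046 reads and the other 7 libraries had 96 together. Adipoq had 1.05, 0, 16.4 and 0.596 CPM in VEH1 to VEH4 and 0.138, 0, 0.516 and 0.561 CPM in BAY1 to BAY4. Outside VEH3, adipsin mRNA had 7 to 40 reads per library, most in VEH1, and adiponectin mRNA at most 9, also in VEH1. The rate ratios were 61.7 for Cfd (50.01 to 76.8) and 37.4 for Adipoq (24.0 to 60.8).

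The remaining hormones had few reads. Retn had 0, 0.139, 5.61 and 0.239 CPM in VEH1 to VEH4 and 0.275, 0, 0 and 0.140 CPM in BAY1 to BAY4, and Lep had 0.349, 0.279, 2.16 and 0 CPM and 0.275, 0.326, 0 and 0 CPM in the same order. Outside VEH3 neither gene had more than 3 reads in any muscle library, so their differences between BAY and VEH without it rest on 9 Lep and 6 Retn reads in all. VEH3 held 52 Retn reads against 6 in the other 7 libraries and 20 Lep reads against 9, with rate ratios of 49.1 (21.1 to 140) and 12.6 (5.48 to 31.4).

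Cyp2e1 and Hp followed the fat cell genes. Cyp2e1 had 0.582, 0.279, 14.4 and 0.358 CPM in VEH1 to VEH4 and 0.275, 0, 0.129 and 0 CPM in BAY1 to BAY4. Hp had 0.931, 0.418, 7.77 and 0.477 CPM in VEH1 to VEH4 and 0.275, 0.326, 0 and 0.140 CPM in BAY1 to BAY4. Every VEH value of either gene lay above every BAY value, but the lowest VEH and highest BAY values were 2 reads each for Cyp2e1 and 3 and 2 reads for Hp. The rate ratios of VEH3 to the other libraries were 57.9 for Cyp2e1 (32.7 to 112) and 20.4 for Hp (12.3 to 35.3), within the range of the fat cell genes.

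**Figure D1:**
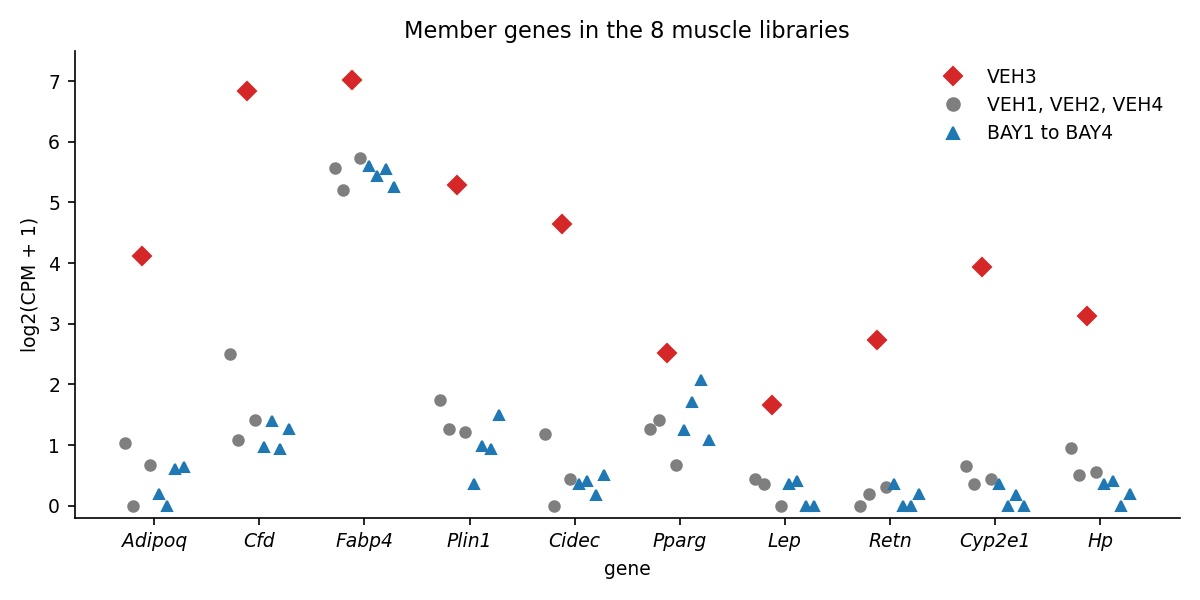
Each point is 1 muscle library, with the gene on the horizontal axis and log2(CPM + 1) on the vertical axis. Red diamonds are VEH3, grey circles the other VEH libraries and blue triangles the BAY libraries. VEH3 is the highest point for all 10 genes, and for Pparg BAY3 comes near it.

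After VEH3, the next highest library was VEH1 for 7 of the 10 members, BAY1 for Retn, BAY3 for Pparg and VEH4 for Fabp4. For Cfd, VEH1 had 4.66 CPM and the next library 1.67 CPM. Levels were compared between genes per kilobase of the canonical transcript. In VEH3 the order was Cfd at 120 CPM per kb, Fabp4 at 94.7, Plin1 at 12.6, Adipoq at 12.4, Cidec at 8.42, Cyp2e1 at 6.82, Hp at 5.78, Retn at 4.91, Pparg at 1.73 and Lep at 0.662. The order of Cfd and Fabp4 held in this library alone, since Fabp4 was above Cfd in the other 7. The same was so of Retn and Pparg, with Pparg the higher in the other 7. Hp was above Cyp2e1 in 6 of 8 libraries, VEH3 not among them. Plin1 was above Adipoq and Cidec above Cyp2e1 in 4 of 8, Hp above Retn in 5 and Adipoq above Cidec in 6, so those neighbours were not separated. Fabp4 was above Plin1, and Pparg above Lep, in all 8. As excess over the median of the other libraries, Cfd came to 119 and Fabp4 to 60.9 CPM per kb, Plin1 to 12.2, and Cyp2e1, Hp and Retn to 6.69, 5.53 and 4.79.

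The question of the series for these genes is whether their levels differ between BAY- and VEH-treated muscle, and the differences were taken with VEH3 and without it. With all 8 libraries and log2 of CPM plus the deposited offset, 8 of 10 members were lower in BAY (44.8% of all genes were), and 3 of them (Cyp2e1, Hp and Plin1) were called, which takes a limma P value below 0.05 before adjustment and a change of 2-fold or more. In this comparison 2.43% of all genes were called, 1.09% as lower in BAY. The members were selected on this contrast, so nothing is read from their count. Without VEH3 none of the members was called, against 2.36% of all genes, and 7 of 10 were lower in BAY, against 38.9% of all genes. On this scale the difference of Cyp2e1 went from -6.78 (SE 2.36) to -5.48 (SE 2.76) and that of Hp from -4.53 (SE 1.92) to -3.59 (SE 2.23). That of Plin1 went from -2.13 (SE 0.92) to -0.99 (SE 0.65). For Cyp2e1 and Hp the size on this scale depends on libraries at 0, BAY2 and BAY4 for Cyp2e1 and BAY3 for Hp. With only BAY3 left out, Hp was at -2.23 (SE 1.03). On log2(CPM + 1), given next, most of both differences went without VEH3.

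The deposited offset of 0.0004 CPM turns a value of 0 into a very low logarithm, so differences were also taken on log2(CPM + 1). On that scale the BAY minus VEH difference of Cfd was -1.82 (SE 0.71), of Plin1 -1.43 (SE 0.55), of Cyp2e1 -1.22 (SE 0.48), of Cidec -1.21 (SE 0.57), of Adipoq -1.10 (SE 0.51) and of Hp -1.05 (SE 0.37). Without VEH3 these became -0.53 (SE 0.30) for Cfd, -0.46 (SE 0.27) for Plin1, -0.35 (SE 0.16) for Cyp2e1, -0.18 (SE 0.22) for Cidec, -0.21 (SE 0.22) for Adipoq and -0.44 (SE 0.18) for Hp. Every member kept its sign on this scale, Pparg being the only one that was higher in BAY, and 9 of the 10 differences moved towards 0. For Fabp4 the difference went from -0.41 (SE 0.24) to -0.03 (SE 0.14), for Retn from -0.67 (SE 0.36) to -0.03 (SE 0.15) and for Lep from -0.42 (SE 0.24) to -0.07 (SE 0.17). That of Pparg went from 0.06 (SE 0.32) to 0.41 (SE 0.28). On the deposited scale the sign of Adipoq turned without VEH3, to 0.01 (SE 3.27), and Cidec was 0.04 (SE 2.42) higher in BAY with all libraries and 2.22 (SE 2.39) without VEH3, where VEH2, at 0, entered as a very low logarithm.

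**Figure D2:**
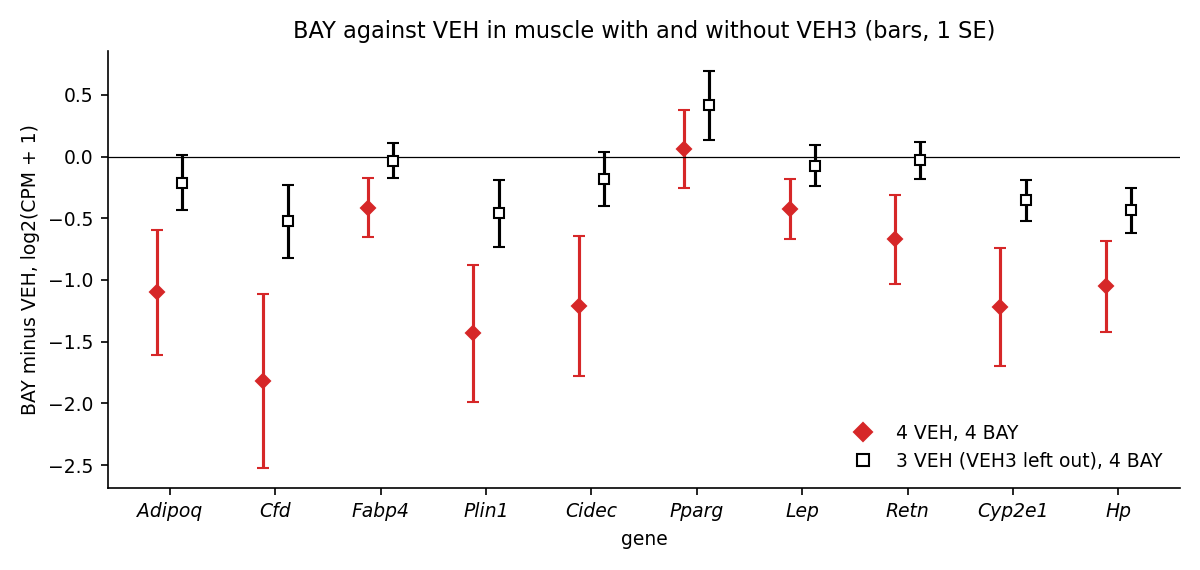
Difference of BAY from VEH in muscle for each gene on the log2(CPM + 1) scale, with all 8 libraries (red diamonds) and without VEH3 (open squares). Bars are 1 SE from limma. The open squares lie nearer to 0 for 9 of 10 genes, and that of Pparg lies further above it.

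What remained of BAY against VEH without VEH3 was small in reads. Cyp2e1 had 10 reads in the other 3 VEH libraries and 3 in the 4 BAY libraries, a rate ratio of BAY to VEH of 0.256 (exact 95% interval 0.0453 to 0.995), and Hp had 15 and 5 reads, a ratio of 0.285 (0.0809 to 0.824). Only for these members did the groups not overlap, with or without VEH3, where 1.53% of all genes had BAY wholly below VEH with all libraries and 1.99% without VEH3. Cfd had 62 reads in the 3 VEH libraries, 40 of them from VEH1, and 34 in BAY (ratio 0.468, 0.299 to 0.723). Plin1 had 41 and 28 reads (0.583, 0.347 to 0.966). Adipoq had 14 and 9 reads (0.549, 0.210 to 1.36) and Cidec 14 and 8 (0.488, 0.177 to 1.25), Lep had 5 and 4 (0.683, 0.136 to 3.17) and Retn 3 and 3 (0.854, 0.114 to 6.38). Fabp4, with 1090 and 1228 reads the best counted member, had a ratio of 0.962 (0.886 to 1.04). Pparg had 29 and 57 reads, a ratio of 1.68 (1.06 to 2.72), 25 of the 57 from BAY3. The members were chosen with these values known, so the ratios and intervals are a description and no test is read from them. The intervals cover counting error and not the spread between mice.

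A further 56 genes of adipocytes were taken as a list, all with a row in the muscle table. VEH3 was the highest library for 43 of them and at least 2 times above every other one for 25. The list marked 32 as not made by muscle fibres, of which 21 stood apart, and 24 as also made by them, of which 4 did. These marks did not always follow the levels seen here. Gpam, marked as not made, had 88.4 to 123 CPM in the other 7 libraries, and Angptl4, marked as made, 0.139 to 0.596 CPM. The summed level of the 32 was 2108 CPM in VEH3 and 268 to 321 CPM in the other 7 libraries.

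Genes of fatty acid and triglyceride synthesis made up the largest group, with 9 of 17 at least 2 times above the rest. Fasn, fatty acid synthase, had 593 CPM in VEH3 and 9.54 to 16.3 CPM in the others, and Scd1, stearoyl-CoA desaturase, 756 CPM against 11.7 to 30.3 CPM. Elovl6 and Acly, which lengthen fatty acids and supply acetyl-CoA, had 49.99 and 77.1 CPM in VEH3 and at most 1.14 and 12.2 CPM elsewhere. The rest of the 9 were Acaca, Agpat2, Dgat2, Pck1 and Thrsp. Gpd1 and Lpin1, which muscle fibres also make, were at 304 and 226 CPM in VEH3, against 243 to 330 and 189 to 226 CPM.

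Of uptake and receptor genes 8 of 15 stood apart, namely Lpl, Aoc3, Pde3b, Acvr1c, Slc36a2, Adrb3, Trarg1 and Lgals12. Lpl, lipoprotein lipase, had 435 CPM in VEH3 and 70.5 to 116 CPM in the other libraries, and Adrb3, the β3-adrenergic receptor, 7.72 CPM against 0 to 0.537 CPM. Slc2a4 and Insr, the glucose transporter and insulin receptor that fibres share, were at 175 and 124 CPM in VEH3 and reached 182 and 111 CPM in others. Among secreted products 5 of 8 stood apart, Rbp4, Angptl4, Adig, Nrg4 and Mrap, each under 5 CPM. Of transcription factors only Cebpa, encoding C/EBPα, did, with 20.5 CPM against 0.716 to 2.95 CPM, while Rxra, Cebpb and Klf15 did not. Of droplet and lipolysis genes Lipe, hormone-sensitive lipase, stood apart with 38.8 CPM against 7.08 to 12.04 CPM, and so did Cidea with 4.97 CPM against at most 0.279 CPM. Pnpla2 and Mgll were highest in VEH3 by less than a factor of 2, and Plin4 was not, at 230 CPM in VEH3 against 228 to 383 CPM. Car3, a carbonic anhydrase abundant in fat and in slow fibres, was lowest in VEH3, at 838 CPM against 1206 to 1526 CPM.

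**Figure D3:**
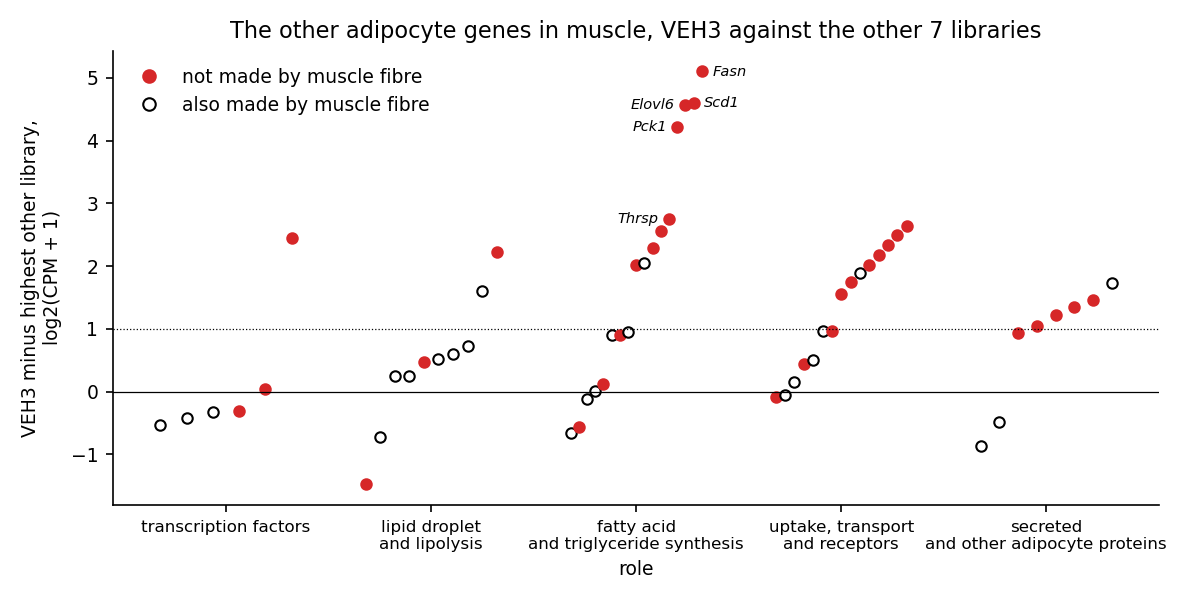
Each point is 1 of 56 other adipocyte genes, grouped by role, and the vertical axis gives VEH3 minus the highest of the other 7 muscle libraries in log2(CPM + 1). The dotted line marks a 2-fold gap, and open points are genes that the list marks as also made by muscle fibres. The role of fatty acid and triglyceride synthesis holds the widest gaps, up to 5.10 for Fasn.

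Of these 56 genes 1 was called in muscle, as lower in BAY, where 2.43% of all genes were called in either direction. It was Adig, adipogenin, with 0.349, 0.139, 2.16 and 0.358 CPM in VEH1 to VEH4, 0.138 CPM in BAY1 and 0 in the other BAY libraries. Its difference of -8.00 (SE 2.51) on the deposited log2 scale had an adjusted P of 0.34 (limma, Benjamini-Hochberg), and rests on 20 reads in VEH3, at most 3 reads in another library and zeros. Without VEH3 it was -7.23 (SE 2.99), with an adjusted P of 0.472. The median difference over the 56 genes was -0.28, with 36 lower in BAY, and without VEH3 it was 0.16, with 18 lower. Over all genes it was 0.06 with 9412 genes lower, and 0.12 with 8166 genes lower without VEH3.

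Outside the members, the genes with the widest gap between VEH3 and the next library were Fasn, Scd1, Elovl6, Pck1, Prkar2b, Cdo1, Trf, Ucp1, Slc25a1 and Thrsp, where the mean level reached 1 CPM. Pearson correlation with the mean of the 8 fat cell members was 0.93 to 0.99 over the 8 muscle libraries, a description that 1 library dominates. Prkar2b, a regulatory subunit of protein kinase A, had 16.3 CPM against at most 0.550 CPM, Cdo1, cysteine dioxygenase, 20.2 against 1.28 CPM, and Trf, transferrin, 31.5 against 3.03 CPM. Ucp1, the uncoupling protein of brown and beige fat, had 7.99 CPM in VEH3 and at most 0.129 CPM in the others. The other 6 brown and beige genes listed were not as far apart, and Cox8b and Ppargc1a, which muscle makes, had 75.5 and 44.4 CPM in VEH3 against 47.8 to 80.1 and 28.2 to 43.1 CPM. By the same gap, Cfd ranked 4, Plin1 6, Cidec 8, Cyp2e1 9, Adipoq 11, Retn 27, Hp 35, Fabp4 96, Lep 102 and Pparg 1261 of 21011 genes.

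Markers of other cell types were examined in VEH3, since Cyp2e1 and Hp are also liver genes. Of 13 hepatocyte markers, Alb and Apoh had rows in the muscle table. Alb, albumin, had 1.63, 0.279, 0 and 0.477 CPM in VEH1 to VEH4 and 0 in the 4 BAY libraries. It had no read in VEH3, and like Cyp2e1 and Hp it was highest in VEH1 among the others and, without VEH3, lower in each BAY library than in each VEH library. Its BAY minus VEH difference on the deposited log2 scale was -7.92 (SE 3.44, adjusted P = 0.486 in limma) and without VEH3 -10.55 (SE 2.76, adjusted P = 0.331 in limma). Alb passed the call in both, where 2.43% and 2.36% of all genes did. These sizes depend on the libraries at 0, and on log2(CPM + 1) the difference with all libraries was -0.58. The part of liver RNA in the remaining values of Cyp2e1 and Hp was not tested. Apoh had 0.108 CPM in VEH3, or 1 read. Of 10 acute phase genes 4 had rows, and C3 was at 89.0 CPM in VEH3 against 14.6 to 31.5 CPM, while Lcn2, Itih4 and Hpx had at most 1 read there. C3 is also made in adipose tissue. Of 8 osteoblast and osteocyte genes 3 had rows, summing to 62.7 CPM in VEH3 against 9.78 to 20.5 CPM, of which Col1a2, a collagen that fibroblasts make as well, gave 61.5 CPM, while Dmp1 and Phex had 6 and 5 reads there. No row was found for the 9 neutrophil genes.

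Stromal and immune genes were higher in VEH3 as well. The 8 genes of adipose progenitors and fibroblasts summed to 322 CPM in VEH3 and 101 to 137 CPM in the others, with Col1a1 at 86.4 against 12.3 to 25.1 CPM, Col3a1 at 81.7 against 13.2 to 23.1 CPM and Lum at 9.07 against 1.54 to 3.90 CPM. The 8 macrophage genes summed to 35.0 against 9.54 to 18.5 CPM, the 4 lymphocyte genes to 4.86 against 1.65 to 3.75 CPM and the 7 Schwann cell genes to 67.5 against 22.7 to 42.1 CPM. The sums of erythroid genes, at 111 CPM, and of fibre genes lay within the range of the other libraries. Among the 10 fibre genes Myh2, the myosin of type IIa fibres, and Acta1, skeletal actin, were highest in VEH3, at 5241 CPM against 808 to 1983 CPM and at 13130 CPM against 9310 to 12162 CPM. The 3 genes of keratinocytes and mammary epithelium with a row summed to 0.756 CPM, below the 0.963 to 2.19 CPM of the others. The part of these cell types in the values of the members was not tested.

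**Figure D4:**
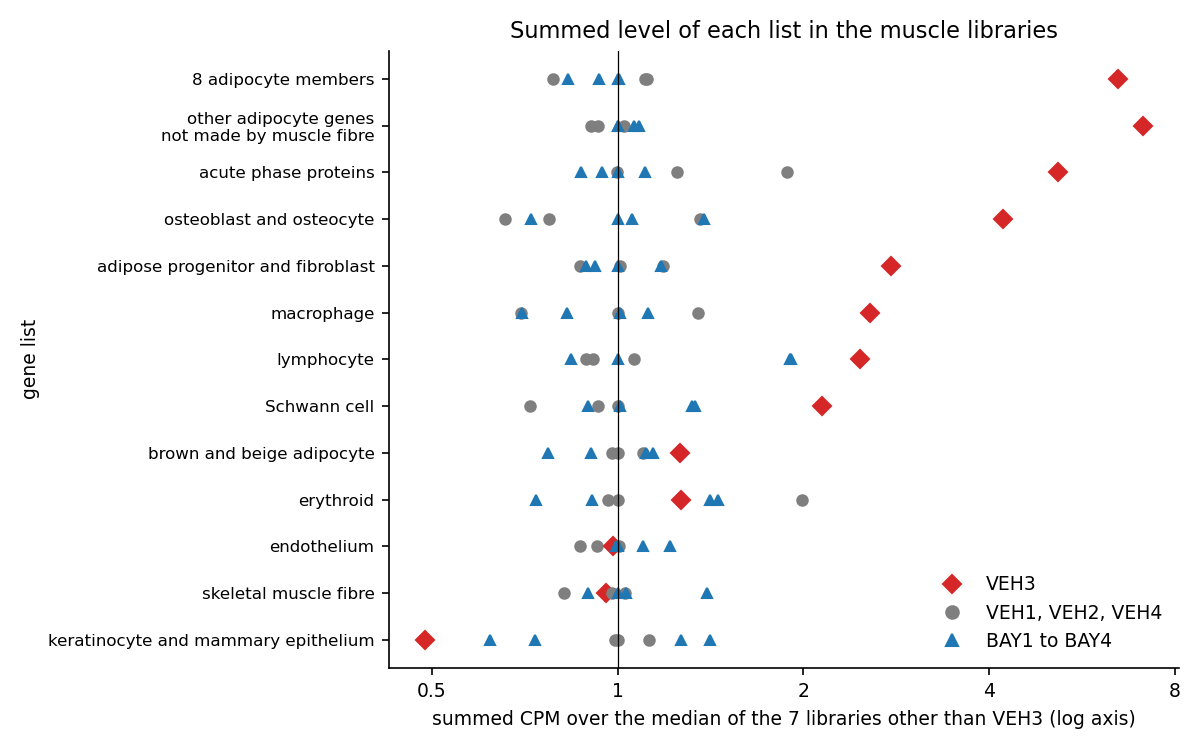
Summed CPM of 13 gene lists in each muscle library, divided by the median of the 7 libraries other than VEH3, on a log axis. Red diamonds are VEH3, grey circles VEH1, VEH2 and VEH4, and blue triangles BAY1 to BAY4. VEH3 lies at 6.48 for the 8 fat cell members and 7.11 for the 32 other adipocyte genes marked as not made by muscle fibres. It lies at 5.18 for acute phase and 4.22 for osteoblast and osteocyte genes, and between 2 and 3 for the next 4 lists. For brown and beige adipocyte genes it lies at 1.26, and for erythroid, endothelial and fibre genes within the other libraries.

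In cortical bone the members could be tested, since they were not chosen there. None of the 10 was called, against 0.64% of all genes, and the unadjusted limma P values of the members were 0.218 or more. The adjusted P values were at least 0.887. Voom on recovered reads called 1 member, Lep, at an adjusted P of 0.731, and 3.68% of all genes. The median difference of all genes was 0.84 on the deposited log2 scale and that of the members -0.05, with 5 higher and 5 lower in BAY, where 19.1% of all genes were lower. After centring each library on its median 8 of 10 were lower, so directions in bone depend on the scaling.

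The bone libraries also held reads on genes of odour detection, which are used in the nose, and these gave a background level. Among 1100 olfactory receptor genes the median level ran from 0.0539 CPM per kb in VEH1 to 8.93 CPM per kb in BAY4, and 1081 or more of them had reads in every library except VEH1, where 625 had. The level of each member per kilobase was therefore set beside that median in its own library.

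Fabp4 stood above this background everywhere. It had 58.1, 37.7, 48.2 and 78.6 CPM in VEH1 to VEH4 and 61.7, 57.9, 76.9 and 48.4 CPM in BAY1 to BAY4. The groups overlapped, with a difference of 0.17 (SE 0.50, adjusted P = 0.947 in limma), and per kilobase the gene was 3.83 to 792 times the receptor median.

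Hp varied the most among the members that were well counted. It had 13.7, 16.6, 26.9 and 81.5 CPM in VEH1 to VEH4 and 8.49, 7.86, 54.5 and 22.6 CPM in BAY1 to BAY4. The highest libraries, VEH4 and BAY3, were of different groups, and the difference was -0.65 (SE 0.81, adjusted P = 0.887 in limma). They were also highest for the summed level of 9 neutrophil granule genes, at 2025 and 1160 CPM, followed by VEH3 at 529 CPM and the other 5 at 57.2 to 208 CPM, in a tissue where neutrophil precursors store haptoglobin. The macrophage and lymphocyte lists were also highest in VEH4 and BAY3, at 846 and 574 CPM and at 430.2 and 319 CPM, so the match was not particular to neutrophil genes, and the part of these cells in the Hp values was not tested. Hp was more than 3 times the receptor median in 4 of 8 libraries.

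The droplet and hormone genes lay lower. Adipoq had 5.03, 10.1, 7.44 and 10.9 CPM in VEH1 to VEH4 and 7.15, 2.89, 5.60 and 4.30 CPM in BAY1 to BAY4, from 4 to 35 reads. The difference was -0.76 (SE 0.91, adjusted P = 0.887 in limma), and without VEH1 its groups no longer overlapped, as was so for 0.665% of all genes with BAY lower, at an adjusted P of 1. Cfd had 7.05, 2.76, 12.4 and 10.2 CPM in VEH1 to VEH4 and 2.23, 3.31, 5.60 and 1.07 CPM in BAY1 to BAY4, with a difference of -1.45 (SE 1.14, adjusted P = 0.887 in limma). Adiponectin and adipsin mRNA each exceeded 3 times the receptor median in 2 libraries, VEH1 and VEH3.

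Plin1 had 6.76, 22.1, 10.3 and 26.2 CPM in VEH1 to VEH4 and 12.5, 9.51, 12.7 and 16.1 CPM in BAY1 to BAY4. Cidec had 3.02 to 9.21 CPM over the 8 libraries and Pparg 1.58 to 23.6 CPM. Each of these 3 passed 3 times the receptor median in VEH1 alone, at ratios of 41.8 for Plin1, 19.6 for Cidec and 10.7 for Pparg, and in the other libraries they lay below 3 times that median, down to 0.210. Their differences were -0.18 (SE 0.72), 0.09 (SE 1.00) and 0.32 (SE 1.12), each smaller than its error.

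Lep had 0.432, 54.3, 5.67 and 16.0 CPM in VEH1 to VEH4 and 16.1, 15.3, 13.7 and 47.3 CPM in BAY1 to BAY4. Its highest values were in VEH2 and BAY4, the shallowest libraries with the highest receptor medians, and its lowest, 3 reads, in VEH1, where that median was lowest. Per kilobase it was 0.870 to 2.45 times the receptor median in all 8 libraries, so leptin mRNA was not separated from the background of bone. With voom on recovered reads Lep was called as higher in BAY, by 2.46 (SE 1.14, unadjusted P = 0.0437, adjusted P = 0.731 in limma), and without VEH1 the difference on the deposited scale went from 1.56 (SE 1.24) to 0.23 (SE 0.74). Retn, at 0 to 9.67 CPM, was at 0 to 1.09 times the receptor median, and Cyp2e1, at 0 in 4 libraries and with at most 4 reads in another, at 0 to 1.27 times.

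**Figure D5:**
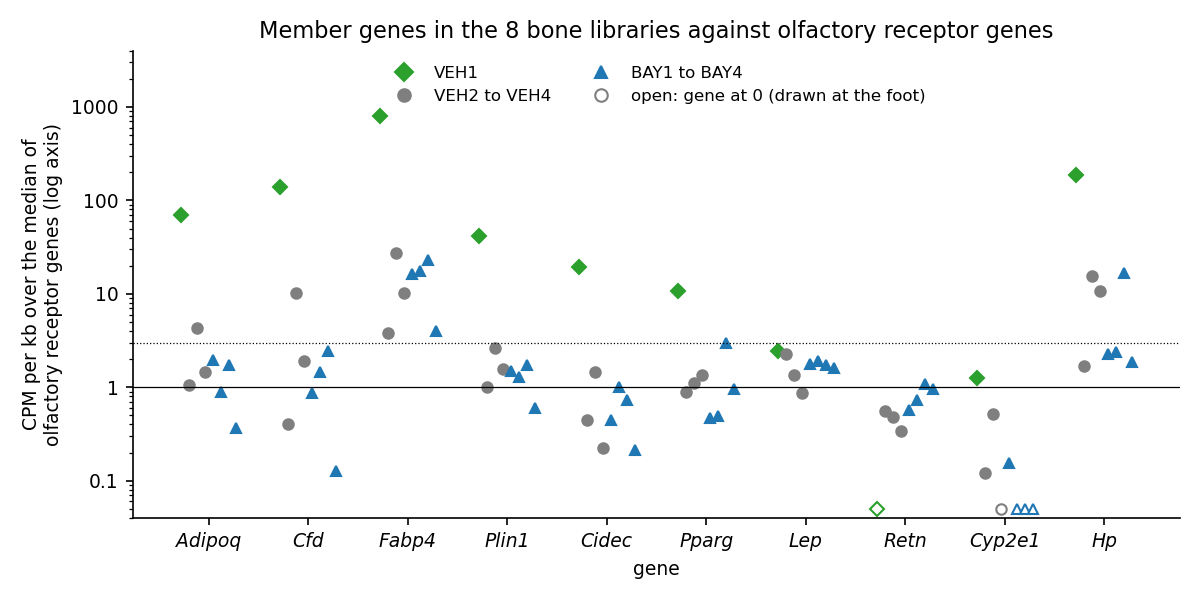
Level per kilobase of each member in each bone library, divided by the median of 1100 olfactory receptor genes in the same library, on a log axis. Green diamonds are VEH1, grey circles the other VEH libraries, blue triangles BAY, open symbols a gene at 0 drawn at the foot, and the dotted line 3 times the median. Fabp4 is above that line in all 8 libraries, and Lep and Retn in none.

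By median level per kilobase the order in bone was Fabp4, Hp, Adipoq, Lep, Cfd, Plin1, Pparg, Retn, Cidec and Cyp2e1, from 42.7 to 0.0342 CPM per kb. Fabp4 was above Hp in 7 of 8 libraries, Hp above Adipoq in 8 and Cidec above Cyp2e1 in 8. From Adipoq to Cidec each neighbour pair kept its order in only 4 to 6 of 8 libraries.

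The bone and muscle tables were normalized separately, so their levels are set side by side without a test, and the bone values include the background described above. Adipoq, Lep, Plin1 and Cidec were higher in each of the 8 bone libraries than in any muscle library but VEH3, at bone medians of 6.38, 15.7, 12.6 and 5.20 CPM. They were more than 3 times the receptor median in 2 bone libraries for Adipoq, in 1 each for Plin1 and Cidec and in none for Lep, so most of these bone values were not separated from background. Adipoq, Plin1, Cidec, Cfd, Fabp4 and Cyp2e1 were below muscle VEH3 in all 8 bone libraries. Hp was the reverse, with 7.86 CPM or more in bone against 7.77 CPM in muscle VEH3 and at most 0.931 CPM in the other muscle libraries. The lowest bone value was thus close to that of muscle VEH3, and Hp was more than 3 times the receptor median in only 4 of 8 bone libraries.

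In bone, 2 of the 56 other adipocyte genes were called, where 0.64% of all genes were, each on at most 3 reads per library. Adig had 3, 1 and 1 reads in BAY1 to BAY3 and 0 in the other 5 libraries, and limma gave it an adjusted P of 0.887. Orm1, an acute phase protein also made by fat, had 2, 2 and 1 reads in VEH1, VEH2 and VEH4 and 0 elsewhere, at the same adjusted P value. Neither was called without VEH1, and at 1 to 3 reads no fold change is given. Without VEH1, where 0.673% of all genes were called, 1 other gene was, Gpd1, a glycerol 3-phosphate dehydrogenase that muscle fibres also make. Gpd1 had 10.8, 29.5, 3.90 and 10.9 CPM in VEH1 to VEH4 and 73.8, 71.5, 12.7 and 22.6 CPM in BAY1 to BAY4. Its difference was 1.70 (SE 0.82) with all libraries and 1.70 (SE 0.77, adjusted P = 1 in limma) without VEH1. It was highest in BAY1 and BAY2, the libraries with the most muscle fibre reads, whose part in this value was not tested.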

How the data were processed

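The 10 members, the list of 56 other adipocyte genes and the marker lists were chosen with earlier results of these data known. Libraries were grouped by the labels, 4 BAY and 4 VEH in each tissue, and same-numbered libraries of BAY and VEH are different mice. The authors aligned trimmed reads with STAR (version 2.7.8a) to mm39, counted Ensembl release 104 genes with Partek's E/M algorithm, scaled them to CPM and deposited log2 of CPM plus an offset, which the tables put at 0.0004 in muscle and 0.0001 in bone. Muscle libraries were stranded and made from mRNA, while use of strand in counting is not given in the sources used here. Antisense long noncoding genes overlap Adipoq, Fabp4, Cidec and Pparg, and a pseudogene overlaps Retn.

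CPM was obtained by undoing the log2 and the offset. Reads were recovered from the step between low values: 81.6% to 83.7% of muscle and 86.5% to 88.7% of bone values up to 50 reads were whole to within 0.02, and 132 of the 143 member values above 0 to within 0.05. BAY was compared with VEH per tissue by limma (version 3.58.1) in R (version 4.3.3), lmFit and eBayes with a trend on the deposited log2 values, two-sided, without a filter, with Benjamini-Hochberg adjustment over all genes of the table. P values are set against the spread between libraries of a group, moderated by a trend over all genes. That spread holds differences in preparation as well as between mice. Ratios of pooled reads have exact binomial 95% intervals. Levels per kb use canonical transcripts of GENCODE M39. The named genes were all members, the other adipocyte genes called or at least 2 times above every other library in muscle VEH3, up to 3 of each role with the highest mean, the 10 most alike genes, and the marker genes that are most abundant or as far apart. Alternatives were log2(CPM + 1), log2(CPM + 0.1), only genes averaging 1 CPM or more, libraries centred on their medians, no trend, array weights, voom on recovered reads, a block for the replicate number, and leaving out each library. The library apart was also left out on log2(CPM + 1), a choice made after seeing the data.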

Additional observations from a re-analysis of the deposited data

Results flagged for a closer look

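Of 40 groups of 4 libraries (10 genes, 2 treatments and 2 tissues), 6 held a library whose gap to the nearest other one, as a share of the range of the group on the log2(CPM + 1) scale, was beyond the 95% limit of Dixon's test, which chance passes in about 1 of 20 groups. In muscle 4 of the 6 were VEH3, for Plin1 at 37.9 CPM, Retn at 5.61 CPM, Cyp2e1 at 14.4 CPM and Hp at 7.77 CPM. These values are a description, since the members were chosen with the level of VEH3 known, and no chance rate applies to them. In bone, Lep in BAY4 was at 47.3 CPM, where the other BAY libraries had 13.7 to 16.1 CPM and the receptor median was highest as well. Cyp2e1 in bone BAY1 was at 0.894 CPM, or 2 reads, where the other BAY libraries had 0.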

How the results depend on the processing

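The cause of each change below was not tested unless the setting itself shows it. In muscle 510 genes were called. There were 52 with log2(CPM + 1), 45 with log2(CPM + 1) without VEH3, 193 with a filter at a mean of 1 CPM, which removes genes from the test, and 448 to 567 with each library left out in turn. Of the other adipocyte genes in muscle, 1 was called, with 4 at log2(CPM + 0.1), 3 by voom on recovered reads, 0 at log2(CPM + 1) without VEH3 and 1 to 4 with each library left out, 4 without VEH4 and 3 without VEH2. In bone 249 genes were called, with 82 under the filter, 443 after median centring, 408 without a trend, 901 with array weights, 1433 by voom and 115 to 1116 with each library left out, 1116 without VEH2. Of the members in bone, 0 were called, and 1, Lep, by voom (3.68% of all genes called) or without VEH2 (2.87%), the range over left-out libraries being 0 to 1. The members were chosen on the muscle contrast, so their calls there are a description. There were 3, among 2.43% of all genes called, 6 with log2(CPM + 1) (0.247%), 1 without a trend (2.85%), 0 without VEH3 (2.36%), 6 without VEH2 (2.64%) and 1 without BAY3 (2.699%). Same-numbered libraries deviated together with correlations of -0.09 to 0.01 in muscle and -0.11 to 0.19 in bone, so the numbers do not pair them. With the replicate block 489 genes were called in muscle and 305 in bone, and Hp was not among the members called. Signs turned for some members, given here as BAY minus VEH in log2. In muscle, Cidec was -1.58 at log2(CPM + 0.1), -1.21 at log2(CPM + 1), -0.18 at log2(CPM + 1) without VEH3, -0.015 after median centring, -1.76 by voom and -3.07 to 2.22 over left-out libraries, Adipoq -5.10 to 0.43 and Pparg -0.28 to 0.72 over left-out libraries. In bone with array weights, Cidec was -0.63, Lep -0.45 and Pparg -0.96. After median centring Cidec was -0.76, Fabp4 -0.68 and Pparg -0.53. On log2(CPM + 1) without VEH1, Cidec was -0.12 and Pparg -0.33, and by voom Plin1 was 0.12. Over left-out libraries Cidec ran from -0.14 to 0.40, Fabp4 from -0.00028 to 0.35, Plin1 from -0.54 to 0.12 and Pparg from -0.39 to 0.86. Depth limits Lep, Retn and Cyp2e1 the most in muscle, with at most 3, 2 and 5 reads in any library but VEH3.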
